A study of Rattus norvegicus with 64 samples.

Results

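Whole blood from 20 male Sprague-Dawley rats was compared. All were kept in a cool environment of 16 C, 15 were given amphetamine (AMPH normothermic in the labels) and 5 were given saline. The 20 rats were taken by their labelled group from 64 rats in all, and every rat of both groups was used. The rats came from Charles River, were 85 to 90 days old, and received 4 sequential injections. Blood was drawn by cardiac puncture 3 h after the last injection and frozen. The AMPH dose used at 16 C is not given in the sources used here. Among the other 44 rats, those given AMPH (AMPH hyperthermic in the labels) or saline at 22.5 C are set beside the cool rats near the end. Globin transcripts were depleted before sequencing, and the values are RSEM expected counts per gene. Total counts ran from 22619751 to 36838601 in the AMPH rats and from 22818212 to 25978612 in the controls.

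AMPH releases dopamine and noradrenaline from nerve endings, and stress of this kind also raises adrenaline and glucocorticoids in the blood. Catecholamines and glucocorticoids move lymphocytes and monocytes into and out of the circulation, induce feedback genes such as Fkbp5 and Dusp1, and restrain inflammatory cytokine genes. Interferon-gamma, made by T cells and NK cells, and the type I interferons induce guanylate-binding proteins, immunity-related GTPases and chemokines such as Cxcl10 in leukocytes. In whole blood, fewer cells of a type and less RNA per cell cannot be told apart.

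All 5 controls were sequenced in 1 project, H33741 by the code in the file names, and only AMPH replicate 14 shared it. The other 14 AMPH rats came from 7 other projects. Sequencing project and drug therefore cannot be told apart over all 20 rats, and AMPH replicate 14 (rat 14) is given against its 5 project mates beside the results. Defining markers of T cells, B cells, NK cells, monocytes, neutrophils, platelets and reticulocytes had counts in all 20 rats.

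The carry-over of heart muscle by the puncture was read from 20 cardiac muscle genes. They summed to between 11.3 and 32.7 CPM (counts scaled to an equal library total) in the controls and to between 12.0 and 2790.3 CPM in the AMPH rats, with a median of 24.1. AMPH replicates 2 and 12 alone were above 1000 CPM, and Myh6 and Tnnt2 were at 0 in 5 and 4 of the 20 rats. Both rats had over 5000 counts of myoglobin (Mb), the limit at which the study left out controls, so results are also given without them. They also had the highest hemoglobin shares, 31.2% and 20.2% of all counts. The controls held 9.07%, 5.06%, 8.04%, 5.91% and 10.1%, and the AMPH rats 4.79% to 31.2% with a median of 10.4%. On the log2(CPM + 1) scale the AMPH mean was 0.54 higher for hemoglobin (two-sided exact permutation test, p = 0.0826) and 1.27 higher for cardiac muscle (p = 0.204, same exact permutation test), so neither difference exceeded the spread between rats.

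**Figure D1:**
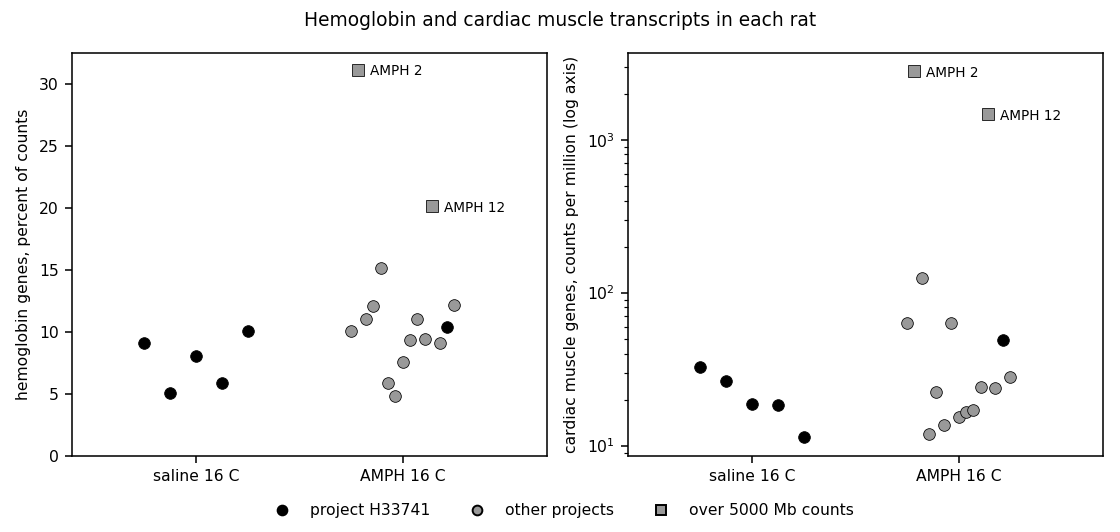
Hemoglobin genes as percent of all counts (left) and cardiac muscle genes in CPM on a log axis (right), 1 point per rat, with the saline 16 C rats and the AMPH 16 C rats side by side. Black points are rats of the controls' sequencing project, grey points are other projects, and squares are AMPH replicates 2 and 12, which lie above every other rat in both panels.

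Of 12498 genes that reached 10 counts in 5 or more rats, 28 had an adjusted p under 0.05 by the quasi-likelihood test of edgeR, 0.224% of those tested. Of these, 13 were higher in the AMPH rats (0.104%) and 15 were lower (0.12%), and 19 changed by more than 2-fold (0.152%). The lower genes included Irg1, Ifi47, Cxcl10, Gbp2 and Gbp5, the last 3 members of the interferon-stimulated list, the cytokines Tnf and Ltb, and the B cell regulator Pax5. The higher genes included the immediate early gene Fos, the cell cycle inhibitor Cdkn1a, the monocyte growth factor Csf1, and Dab2 and Stab1, which act in endocytosis by macrophages. Per AMPH rat, a median of 26 of the 28 genes lay outside the range of the 5 controls on the called side, from 20 in replicate 1 to 28. These same rats gave the calls, so this count describes the 28 genes and tests nothing. In 7 of the 28 the groups did not overlap, and 24 of all genes tested did not overlap (0.192%).

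**Figure D2:**
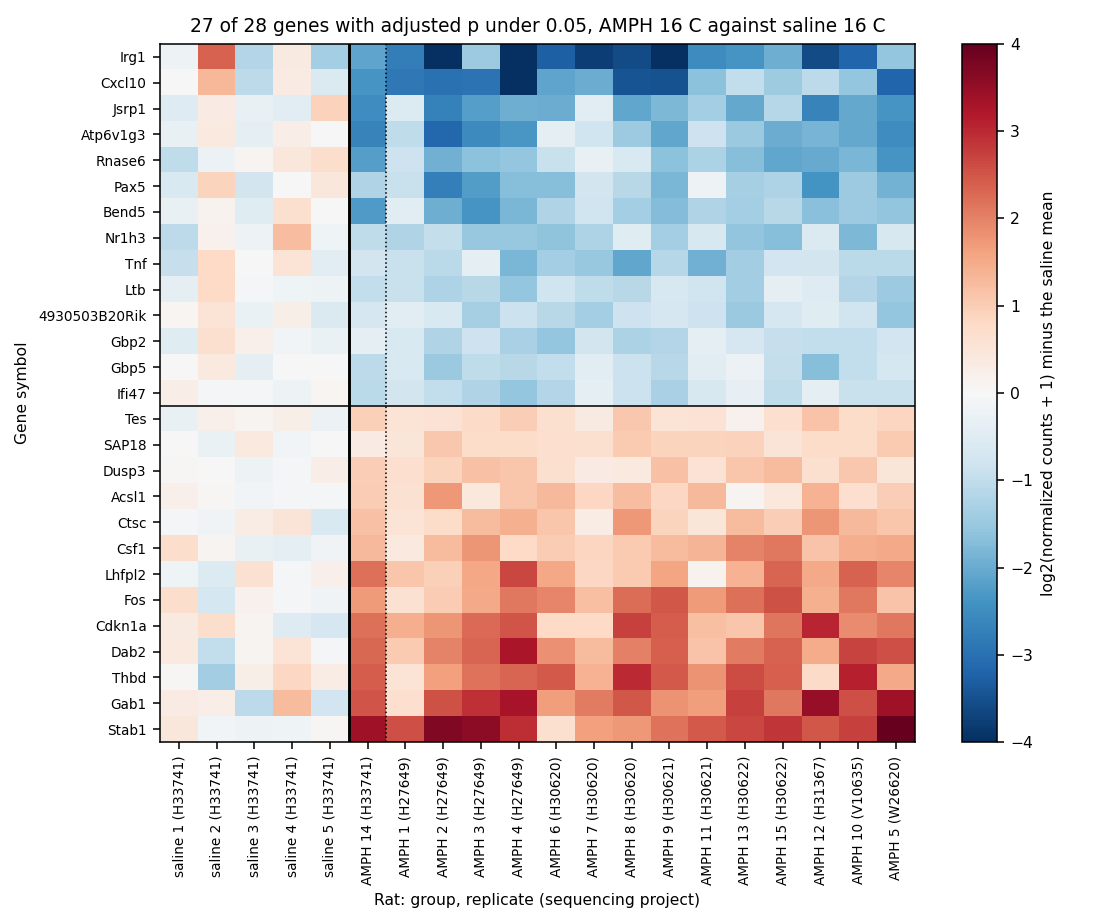
Each cell is 1 gene in 1 rat, for 27 of the 28 called genes, and the colour is log2(normalized counts + 1) minus the mean of the 5 saline rats, capped at 4 in each direction. Columns are the saline rats and the AMPH rats, labelled with their sequencing project. Over all 28, a median of 26 genes per AMPH rat lay outside the control range.

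The number of calls moved with the test and the rats. DESeq2's Wald test called 308 genes (2.46%), among them all 28. Leaving out AMPH replicates 2 and 12 gave 55 genes (0.444%) in edgeR, again with all 28 among them. Leaving out control replicate 2 left no gene called in edgeR, with a smallest adjusted p of 0.0664 and 1412 genes at an unadjusted p under 0.05. Leaving out control replicates 3, 4 or 5 left 16, 5 and 8 genes, and leaving out AMPH replicates 7, 10 or 12 gave 65, 18 and 47.

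Rat 14 against its 5 project mates gave 0 of 11155 genes in edgeR (0.0%), 1481 at an unadjusted p under 0.05 (13.3%) and 280 by DESeq2. That comparison rests on 1 AMPH rat, which was assumed to vary like the controls. Of the 28 genes, 26 could be tested there, and all 26 had the same sign. The same 5 controls gave the calls, so shared signs are largely fixed in advance and test nothing. This limit also holds for every gene list given below for rat 14, whose values describe 1 rat. Rat 14 lay outside the control range on the called side for 24 of the 28, and it is itself 1 of the 15 rats that gave the calls.

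With all 64 rats in 1 fit the project could enter as a term, since other groups link the projects. None of 13978 genes passed in edgeR for AMPH against saline at 16 C (smallest adjusted p = 0.139). At an unadjusted p under 0.05 stood 1462 of them, and DESeq2 was not run on this fit. All 28 genes kept their sign there and 22 had an unadjusted p under 0.05. The fit holds every rat that gave the calls, so the kept signs test nothing about the project. Log2 fold changes were -2.96 for Irg1, -3.22 for Cxcl10, -1.30 for Ltb, 2.44 for Dab2 and 3.06 for Stab1. The same 64 rats in 1 fit without the project term also gave 0 genes in edgeR (smallest adjusted p = 0.0942). The part of the project term in the lost calls was not tested.

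Cxcl10, Gbp2, Gbp5 and Ifi47 are shown with the 250 bases before their transcription start. They are interferon-induced genes, picked because these bases match the letters of an interferon motif. The sequences are from RefSeq (GRCr8). Capitals mark the core of the interferon-stimulated response element, TTTCNNTTTC on either strand, in Cxcl10, Gbp2 and Gbp5, and the gamma-activated site, TTCNNNGAA, in Ifi47.
Cxcl10 promoter, GRCr8 chr14:15988816-15989065, + strand: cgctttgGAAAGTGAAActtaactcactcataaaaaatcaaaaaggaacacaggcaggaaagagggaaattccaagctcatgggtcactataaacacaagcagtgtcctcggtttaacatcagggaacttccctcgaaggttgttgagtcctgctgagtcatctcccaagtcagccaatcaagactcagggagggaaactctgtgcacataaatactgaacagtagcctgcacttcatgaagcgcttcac
Gbp2 promoter, GRCr8 chr2:234005477-234005726, + strand: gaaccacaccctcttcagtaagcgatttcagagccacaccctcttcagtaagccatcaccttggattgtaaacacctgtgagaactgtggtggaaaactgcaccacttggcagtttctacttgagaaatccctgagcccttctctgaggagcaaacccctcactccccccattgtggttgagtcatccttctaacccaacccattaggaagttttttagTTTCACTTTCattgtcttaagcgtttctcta
Gbp5 promoter, GRCr8 chr2:233910749-233910998, + strand: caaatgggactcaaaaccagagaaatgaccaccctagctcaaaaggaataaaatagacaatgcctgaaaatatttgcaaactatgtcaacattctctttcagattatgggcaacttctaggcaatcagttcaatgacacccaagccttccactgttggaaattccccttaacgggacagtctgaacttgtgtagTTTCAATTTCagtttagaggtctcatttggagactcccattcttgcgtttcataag
Ifi47 promoter, GRCr8 chr10:33798494-33798743, + strand: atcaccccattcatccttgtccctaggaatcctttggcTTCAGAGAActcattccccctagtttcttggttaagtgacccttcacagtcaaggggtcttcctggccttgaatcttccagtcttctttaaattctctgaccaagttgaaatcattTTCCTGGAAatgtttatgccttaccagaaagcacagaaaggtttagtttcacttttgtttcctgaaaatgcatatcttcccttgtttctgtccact
The response element core stood 243 bases before the start of Cxcl10, 31 before that of Gbp2 and 56 before that of Gbp5, and Ifi47 held gamma-activated sites at 212 and 96 bases. Of 33469 rat promoters of the same length, 3.41% held the response element core and 7.67% the gamma-activated site. Among the 28 called genes, 21 had a promoter in the RefSeq table, of which 3 held the first motif and 4 the second. Of the 37 interferon-stimulated genes tested, 26 had a promoter there, and 18 of these held the response element core and 6 the gamma-activated site. A match describes the letters in the window only.

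Irg1, the enzyme of activated macrophages that makes itaconate, had the largest fold among the 15 lower genes. The controls had 132, 780.0, 67.0, 196 and 59.0 normalized counts (counts divided by the size factor of the library), and the AMPH rats 3.69 to 55.4 with a median of 16.1. Every AMPH rat was below every control. The level was 10.8-fold lower (edgeR log2 fold change -3.43, SE 0.49, adjusted p = 0.00695), and without control replicate 2, the highest control, the log2 fold change was -2.31 and the adjusted p 0.0931 in edgeR. Rat 14 had 34.7.

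Cxcl10, the chemokine that draws activated T cells, had 108, 274, 51.9, 135 and 72.1 normalized counts in the controls and 3.02 to 54.7 in the AMPH rats, with a median of 20.3. In 13 of 15 AMPH rats, rat 14 among them, it was below every control. The level was 5.36-fold lower (edgeR log2 fold change -2.42, SE 0.43, adjusted p = 0.0184). In both Irg1 and Cxcl10 the controls spread several-fold, with replicate 2 the highest.

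The guanylate-binding proteins restrict pathogens inside cells. Gbp2 had 3823, 8373, 6195, 4951 and 4408 normalized counts in the controls and 1832 to 4195 in the AMPH rats (median 2816), 1.93-fold lower (edgeR adjusted p = 0.0243). Rat 14 had the highest AMPH value and lay inside the control range, with a log2 fold change of -0.42 against its project mates (edgeR unadjusted p = 0.321). Gbp5 had 591, 782, 452, 588 and 603 normalized counts in the controls and 179.9 to 507 in the AMPH rats (median 297), 1.86-fold lower (edgeR adjusted p = 0.0399). These genes are close paralogs whose reads the counting could split, so each value is uncertain to that degree.

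Ifi47, an immunity-related GTPase, separated the groups. The controls had 4035, 3193, 3162, 2945 and 3587 normalized counts and the AMPH rats 1153 to 2699.7 with a median of 1798, so no AMPH rat reached the lowest control. The level was 1.84-fold lower (edgeR log2 fold change -0.88, SE 0.16, adjusted p = 0.0234). Rat 14 had 1599, a log2 fold change of -1.10 against its project mates (edgeR unadjusted p = 0.00239).

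As a list, the interferon-stimulated genes held 37 genes tested. Of these, 3 were called lower (Cxcl10, Gbp2 and Gbp5) and 0 higher. Their median log2 fold change was -0.62, against 0.03 over all genes. At an unadjusted p under 0.05 stood 17 in the lower direction, where 6.56% of all genes did, and 1 in the higher. Against rat 14's project mates 31 of 37 were below 0, with a median of -0.82, where 5993 of all 11155 genes were below 0. Not every member was low. Rsad2, an antiviral enzyme induced by type I interferon, had a log2 fold change of 0.42 (edgeR adjusted p = 0.466). Psmb8 and Psmb10, inducible proteasome subunits, had -0.57 (adjusted p = 0.145) and -0.55 (adjusted p = 0.18).

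Tnf, the inflammatory cytokine, had 430.0, 1443, 820.0, 1204 and 613 normalized counts in the controls and 193 to 625.4 in the AMPH rats, with a median of 385. In 10 of 15 AMPH rats it was below every control. The level was 2.43-fold lower (edgeR log2 fold change -1.28, SE 0.24, adjusted p = 0.0234), and rat 14, at 496, lay inside the control range. Lymphotoxin beta (Ltb), a Tnf family ligand of lymphocytes, had 3667, 8211, 4544, 4227 and 4062 in the controls and 1615 to 3664 in the AMPH rats with a median of 2350.3. The groups did not overlap, though the highest AMPH rat came close to the lowest control. The level was 2.06-fold lower (edgeR log2 fold change -1.04, SE 0.18, adjusted p = 0.0159).

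Csf1, the growth factor of monocytes and macrophages, had 1474, 967, 741, 701.3 and 816 normalized counts in the controls and 1181 to 3889 in the AMPH rats (median 2162). In 14 of 15 AMPH rats it was above every control. The level was 2.42-fold higher (edgeR log2 fold change 1.27, SE 0.24, adjusted p = 0.0243). Tnf and Csf1 were the 2 genes called among 26 inflammatory cytokine and NF-kB feedback genes, whose median log2 fold change was -0.19. For rat 14 against its project mates the median was 0.13, the other direction, with 16 of 25 above 0, where 5162 of all 11155 genes were. Relb, an NF-kB subunit, had a log2 fold change of -0.83 (edgeR adjusted p = 0.083) and the adhesion molecule Icam1 -0.53 (adjusted p = 0.179). Among myeloid genes, Nr1h3, a nuclear receptor for oxysterols, was 2.56-fold lower (edgeR adjusted p = 0.0259).

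**Figure D3:**
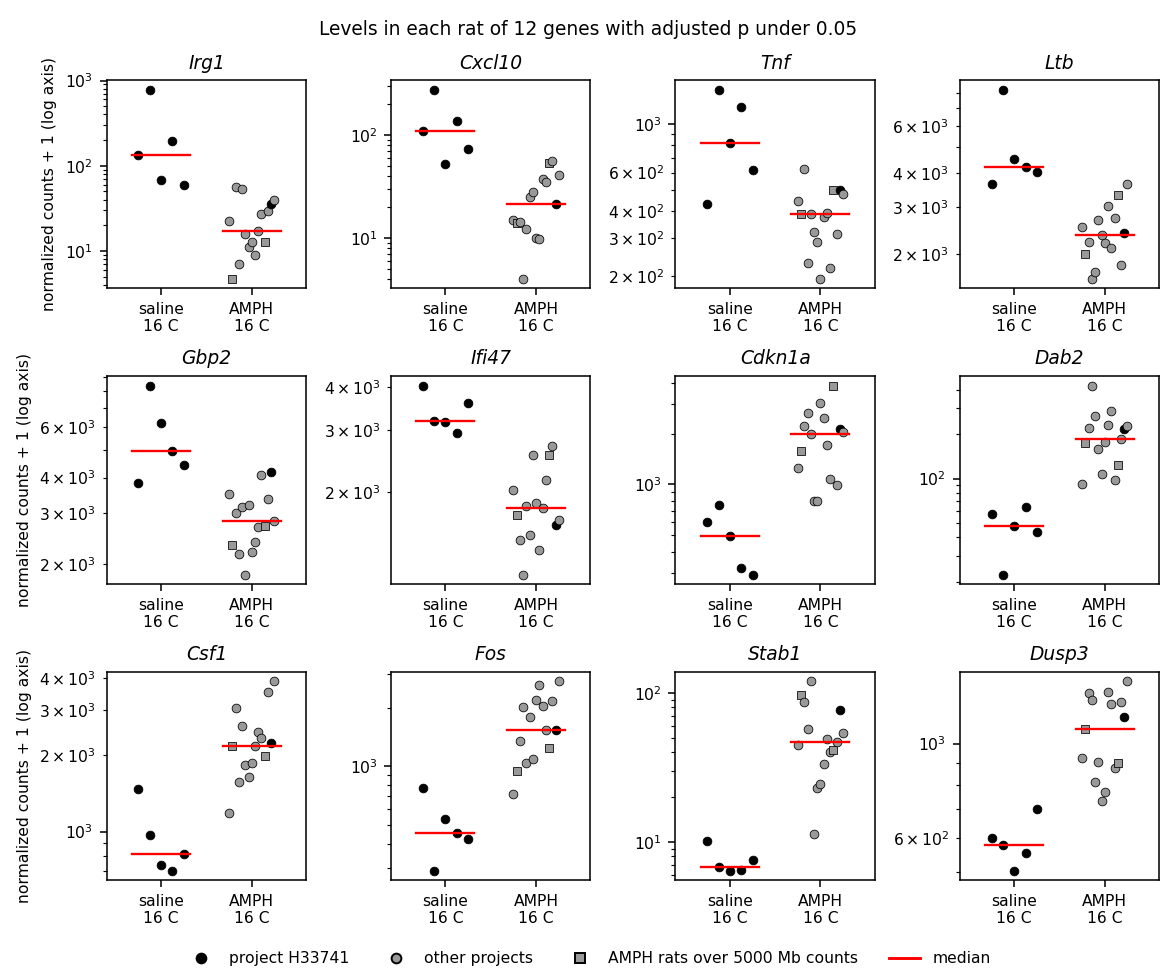
Normalized counts plus 1 on a log axis in each of the 5 saline and 15 AMPH rats for 12 of the 28 called genes. Black points are rats of the controls' sequencing project, other points are rats of other projects, and squares are AMPH replicates 2 and 12. Irg1 ran from 59.0 to 780.0 in the controls and from 3.69 to 55.4 in the AMPH rats, and Cdkn1a from 291 to 754 and from 792 to 3842.

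Genes of B cells leaned lower. Pax5, the transcription factor that holds B cell identity, had 171, 490.0, 157, 269 and 359.6 normalized counts in the controls and 38.7 to 229 in the AMPH rats, with a median of 96.3. In 13 of 15 AMPH rats, rat 14 included, it was below every control. The level was 2.87-fold lower (edgeR log2 fold change -1.52, SE 0.30, adjusted p = 0.0284). Pax5 was the 1 gene called of 19 B cell genes, whose median log2 fold change was -0.79. All 19 were below 0, where 5810 of all 12498 genes were. At an unadjusted p under 0.05 stood 15, all lower, where 6.56% of all genes did. Their summed level was 439.5 to 918 CPM in the controls and 76.7 to 724 CPM in the AMPH rats, of which the lowest was 180.4 CPM without AMPH replicates 2 and 12. The defining markers Cd79b and Ms4a1 were at 0 in no rat. Rat 14 had 19 of 19 below its project mates, where 5993 of all 11155 genes were below, with a list median of -1.15.

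Spib, a transcription factor of B cells and plasmacytoid dendritic cells, had an edgeR adjusted p of 0.0691 in the 20 rats and was called without AMPH replicates 2 and 12 (log2 fold change -1.17, edgeR adjusted p = 0.0415). Cd79b, a subunit of the B cell receptor, ran from 2711 to 5045 normalized counts in the controls and from 876 to 3386 in the AMPH rats (log2 fold change -1.14, edgeR adjusted p = 0.0732). Of the remaining genes called lower, Rnase6, a ribonuclease of phagocytes, was 2.88-fold lower (adjusted p = 0.0243). Bend5 was 2.80-fold, Jsrp1 3.61-fold, Atp6v1g3 3.35-fold and 4930503B20Rik 1.93-fold lower. Jsrp1 and Atp6v1g3 are genes of low count here. Bend5 had 78.9 to 171 and 4930503B20Rik 80.5 to 178 normalized counts in the controls.

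MHC class II genes present antigen on B cells, dendritic cells and monocytes. Of 12, 0 were called in edgeR and 1 by DESeq2, with a median log2 fold change of -0.72. At an unadjusted p under 0.05 stood 8, all lower, where 6.56% of all genes did. Cd74, the invariant chain, ran from 18589 to 34189.7 normalized counts in the controls and from 7874 to 25166 in the AMPH rats (edgeR adjusted p = 0.143). RT1-DOa, a regulator of class II loading, had a log2 fold change of -1.13 (edgeR adjusted p = 0.0689). T cell genes had a median of -0.30 with 0 of 27 called in edgeR and 1 by DESeq2. As with the B cell genes, nearly all were below 0, 25 of 27, where 5810 of all 12498 genes were. Their summed level had a median of 919 CPM in the controls and 561 CPM in the AMPH rats. Of the 27, 5 were lower at an unadjusted p under 0.05, against that same 6.56%. NK and cytotoxic granule genes had a median of -0.22 with 0 of 22 called by either tool and 1 at an unadjusted edgeR p under 0.05. Of these 22, 21 were below 0. Gzmm, a granule protease, had -0.74 (edgeR adjusted p = 0.123). For rat 14 against its project mates the medians were -1.03 for MHC class II, -0.36 for T cell and -0.11 for NK and cytotoxic granule genes. Ptprcap, a lymphocyte partner of the phosphatase CD45, had 672 to 1607 normalized counts in the AMPH rats, all below the controls at 1666 to 2088, with an edgeR adjusted p of 0.104.

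Among the higher genes, Cdkn1a, an inhibitor of cyclin-dependent kinases that p53 induces, had 597, 754, 492.6, 319 and 291 normalized counts in the controls and 792 to 3842 in the AMPH rats, with a median of 1998. The groups did not overlap. The level was 3.83-fold higher (edgeR log2 fold change 1.94, SE 0.35, adjusted p = 0.022), and rat 14 had 2134. Cell cycle and replication genes had 0 of 34 called in edgeR, 3 higher and 4 lower at an unadjusted p under 0.05, 1 called by DESeq2, and a median of 0.25, against -0.14 for rat 14 and its project mates. Bub1b, a mitotic checkpoint kinase, had a log2 fold change of -1.14 (edgeR adjusted p = 0.127).

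Fos, an immediate early transcription factor, had 768, 289, 534, 453 and 423 normalized counts in the controls and 716 to 2740.0 in the AMPH rats, with a median of 1540.1. In 14 of 15 AMPH rats it was above every control. The level was 3.35-fold higher (edgeR log2 fold change 1.75, SE 0.30, adjusted p = 0.0159). Fos was the 1 gene called of 26 immediate early genes, whose median was 0.17, and 0.35 for rat 14 and its project mates. Klf6, a zinc finger factor, had a log2 fold change of 0.69 (edgeR adjusted p = 0.112), and the orphan receptor Nr4a1 had -0.83 (adjusted p = 0.125).

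Dab2, an endocytic adaptor, had 56.9, 21.3, 46.5, 63.1 and 42.1 normalized counts in the controls and 90.3 to 426 in the AMPH rats (median 184), 4.26-fold higher (edgeR log2 fold change 2.09, SE 0.34, adjusted p = 0.0114). Stab1, a scavenger receptor of macrophages, had 9.15, 5.80, 5.40, 5.49 and 6.56 in the controls and 10.4 to 118 in the AMPH rats (median 45.5), 7.89-fold higher (edgeR log2 fold change 2.98, SE 0.47, adjusted p = 0.0114). Neither gene overlapped between the groups, and rat 14 had 217 counts of Dab2 and 76.2 of Stab1. Stab1 is a gene of low count here, with at most 9.15 normalized counts in any control. With the project as a covariate over the 20 rats, the drug term rests on rat 14 against its 5 project mates, with the spread taken from all rats, and Stab1 was the 1 gene called (log2 fold change 3.51, edgeR adjusted p = 0.00522).

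Thrombomodulin (Thbd), which turns thrombin towards activating protein C, was 4.28-fold higher (edgeR adjusted p = 0.0286). It had 3.87 to 21.9 normalized counts in the controls and 17.9 to 109 in the AMPH rats, with a median of 64.3. Gab1, a docking protein of growth factor receptors, was 5.43-fold higher (edgeR adjusted p = 0.0243). It had 2.16 to 14.6 normalized counts in the controls and 9.41 to 72.9 in the AMPH rats. Thbd and Gab1 are genes of low count here, and in both the groups overlapped. Lhfpl2 was 3.09-fold higher (edgeR adjusted p = 0.0396). Ctsc, the protease that activates granule proteases, ran from 2044 to 4409 normalized counts in the controls and from 3788 to 10510.0 in the AMPH rats (2.08-fold higher, edgeR adjusted p = 0.049). Acsl1, which activates long-chain fatty acids, was 1.95-fold higher (adjusted p = 0.043). The phosphatase Dusp3 had 599, 576, 501, 551 and 701.4 in the controls and 732 to 1399 in the AMPH rats, with no overlap (1.79-fold higher, edgeR adjusted p = 0.0243). Tes, a focal adhesion protein, was 1.62-fold higher (adjusted p = 0.043), and SAP18, a subunit of histone deacetylase complexes, 1.68-fold higher (adjusted p = 0.022).

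Genes of monocytes differed in sign. None of 25 was called by edgeR in the 20 rats and 4 were called by DESeq2. At an unadjusted edgeR p under 0.05, 10 were higher, where 7.25% of all genes were, and 3 lower, with a list median of 0.42. Cd14, the lipopolysaccharide co-receptor, had 279, 280.3, 205, 433 and 130.2 normalized counts in the controls and 262 to 2315 in the AMPH rats (log2 fold change 1.81, edgeR adjusted p = 0.0915). Vcan, a proteoglycan of classical monocytes, had 1.53 (adjusted p = 0.0915). Clec10a, a lectin of dendritic cells and macrophages, was called without AMPH replicates 2 and 12 (log2 fold change 1.77, edgeR adjusted p = 0.0349). The monocyte genes summed to 9651 to 21544 CPM in the controls and 5400.1 to 28178 CPM in the AMPH rats, of which the lowest was 8569.5 CPM without AMPH replicates 2 and 12. For rat 14 against its project mates the list median was 0.32.

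Neutrophil genes had 0 of 24 called in edgeR, 3 higher and 3 lower at an unadjusted p under 0.05, 1 called by DESeq2, and a median of -0.07. Rat 14 against its project mates had the other direction, with a median of 0.48 and 19 of 23 above 0, where 5162 of all 11155 genes were. The formyl peptide receptor Fpr1 had a log2 fold change of 1.04 (edgeR adjusted p = 0.148), Trem1 0.82 (adjusted p = 0.193) and Padi4, which citrullinates histones, -0.48 (adjusted p = 0.201). Of the study's own immune-related genes 27 were tested and 0 called in edgeR, 6 were higher and 7 lower at an unadjusted p under 0.05, and DESeq2 called 2 higher and 1 lower.

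Genes of red cells leaned higher, and platelet genes did so by list median but not by summed level. Of 33 reticulocyte and red cell genes 0 were called in edgeR and 2 by DESeq2. At an unadjusted p under 0.05, 12 were higher, where 7.25% of all genes were. The 33 genes had a median of 0.59, or 0.36 without AMPH replicates 2 and 12. They summed to 94550.3 to 153006 CPM in the controls and 105096 to 361540.0 CPM in the AMPH rats, of which the highest was 211110.0 CPM without those 2 rats. Rat 14 and its project mates gave a median of 0.39. Their part in the other results was not tested. Platelet genes had 0 of 20 called in edgeR, 3 higher at an unadjusted p under 0.05, against the same 7.25%, and 1 called by DESeq2. Their median was 0.43, against -0.02 for rat 14 and its project mates. The platelet genes summed to 2677 to 5691 CPM in the controls (median 5140) and 2417 to 7254 CPM in the AMPH rats (median 4178). Thbs1, thrombospondin of platelets and monocytes, was called without AMPH replicates 2 and 12 (log2 fold change 2.10, edgeR adjusted p = 0.0329).

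Genes that glucocorticoids induce had 0 of 16 called in edgeR and 3 by DESeq2. At an unadjusted p under 0.05 stood 8, all higher, where 7.25% of all genes did. The list median was 0.33, against 0.19 for rat 14 and its project mates. Fkbp5, the co-chaperone that damps the glucocorticoid receptor, had 797, 539, 634, 711.4 and 611 normalized counts in the controls and 542 to 2231 in the AMPH rats, with 12 of 15 above every control (log2 fold change 0.83, edgeR adjusted p = 0.162). Rat 14 had 1451. Per1, a clock gene that glucocorticoids induce, had a log2 fold change of 1.25 (adjusted p = 0.169), with 12 rats above and 2 below every control. The phosphatase Dusp1 had 0.73 (adjusted p = 0.164) and Tsc22d3, the glucocorticoid-induced leucine zipper, 0.45 (adjusted p = 0.304). Crem, the cAMP response modulator, was above every control in 14 of 15 rats (log2 fold change 1.26, edgeR adjusted p = 0.0691).

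Hypoxia and glycolysis genes had 0 of 29 called in edgeR and 4 by DESeq2, with a median of 0.52. At an unadjusted p under 0.05 stood 14, all higher, where 7.25% of all genes did. For rat 14 and its project mates the median was 0.80. Egln3, an oxygen-sensing prolyl hydroxylase, had 158, 342, 287, 364 and 282 normalized counts in the controls and 361 to 1021 in the AMPH rats (log2 fold change 0.83, edgeR adjusted p = 0.115). Vegfa, the vascular growth factor, had 0.80 (adjusted p = 0.146) and Ldha, lactate dehydrogenase, 0.54 (adjusted p = 0.259). Among 20 metallothionein and antioxidant genes 0 were called in edgeR, 7 were higher and 1 lower at an unadjusted p under 0.05, and DESeq2 called 1. Their median was 0.36, and 0.35 for rat 14 and its project mates. Hmox1, heme oxygenase, had 0.93 (edgeR adjusted p = 0.172).

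**Figure D4:**
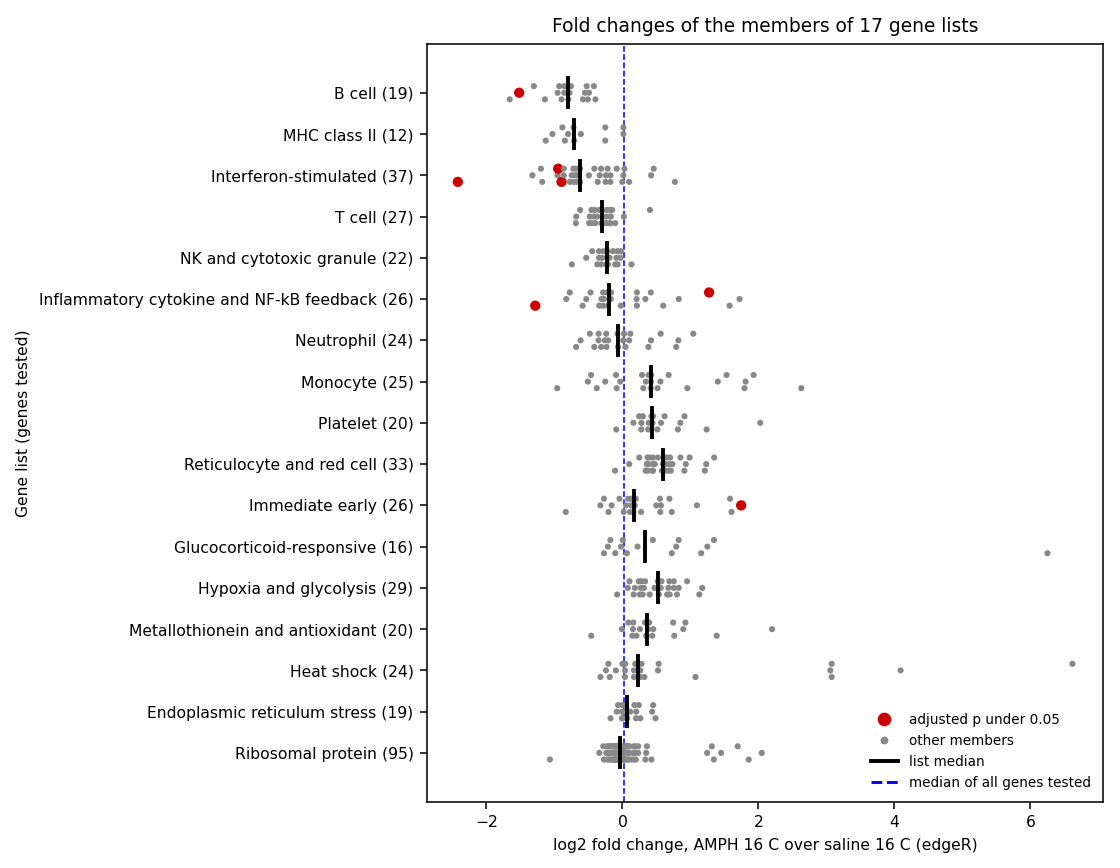
Each point is the edgeR log2 fold change, AMPH 16 C over saline 16 C, of 1 member of a gene list, for 17 lists. Black bars are list medians, the dashed line is the median of all genes tested, and red points are genes with an adjusted p under 0.05. The B cell, MHC class II and interferon-stimulated lists have medians of -0.79, -0.72 and -0.62.

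Heat shock genes encode the chaperones that cells make when proteins unfold, and AMPH raises body temperature in a warmer room. Of the list 24 entries were tested, and Hspa1b stood as 2 of them under separate identifiers with identical values. A count that includes Hspa1b therefore holds it as 2. At 16 C none of the 24 was called in edgeR and DESeq2 called 2. At an unadjusted p under 0.05, 4 were higher and 1 lower. The median log2 fold change was 0.23, or 0.01 without AMPH replicates 2 and 12 and 0.04 for rat 14 and its project mates. At 22.5 C, 8 AMPH rats with IDs of the same form as the saline rats there were set against the 4 saline rats under 5000 Mb counts. There 14 of 24 were called higher with a median of 2.21, where 2.5% of all genes were called higher. The 16 C and 22.5 C comparisons share no rats. Hsp90aa1, a cytosolic chaperone, had 2908 to 5183 normalized counts in the 16 C controls and 2083 to 17926 in the 16 C AMPH rats. Its log2 fold change was 0.32 (SE 0.37) at 16 C, or -0.02 when scaled by library size only, and 4.89 (SE 0.86) at 22.5 C. Hsph1 had 0.26 (SE 0.36) at 16 C, or -0.05 with that scaling, and 6.52 (SE 1.10) at 22.5 C.

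Hspa1b, a strongly inducible chaperone, had 10.2, 11.6, 6.48, 5.49 and 13.1 normalized counts in the 16 C controls and 11.5 to 460.3 in the 16 C AMPH rats with a median of 36.8. In 14 of 15 it was above every control (log2 fold change 3.08, SE 0.85, edgeR adjusted p = 0.114), and at 22.5 C the log2 fold change was 10.22 (SE 1.89, edgeR adjusted p = 0.0103). The files list Hspa1b under 2 identifiers with identical values. Endoplasmic reticulum stress genes had 0 of 19 called by either tool at 16 C, 2 at an unadjusted edgeR p under 0.05 and a median of 0.07 (0.45 for rat 14 and its project mates), and 12 called higher with a median of 1.23 at 22.5 C. Hspa5, the lumenal chaperone, had 0.26 (SE 0.21) at 16 C and 1.67 (SE 0.33) at 22.5 C. Rbm3 and Cirbp, RNA-binding proteins induced by mild cold, had 0.30 (edgeR adjusted p = 0.562) and 0.32 (adjusted p = 0.619) at 16 C, where both groups were kept cool.

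The difference between the environments was tested for every gene as a difference of differences. None of 13186 genes passed in edgeR (0.0%, smallest adjusted p = 0.0813), 1109 had an unadjusted p under 0.05 (8.41%), and DESeq2 called 92. This set 8 AMPH and 4 saline rats at 22.5 C against the 20 cool rats, and with all rats of the 4 groups edgeR called 374 genes. Without the 2 rats over 5000 Mb counts edgeR called 2 genes, Hsp90aa1 (difference -4.86, SE 0.88, adjusted p = 0.0354) and Hsph1 (difference -6.49, SE 1.18, adjusted p = 0.0354). Leaving out saline replicate 19 at 22.5 C gave 171 genes, and leaving out AMPH replicate 17 at 22.5 C gave 138. Irg1 had a log2 fold change of -3.43 at 16 C and 3.22 (SE 1.18, edgeR adjusted p = 0.136) at 22.5 C, a difference of -6.66 (SE 1.53, edgeR adjusted p = 0.0813). Ifi47 had -0.88 and 0.75, Gbp2 -0.95 and 0.80, Tnf -1.28 and 0.68, and Ltb -1.04 and 0.62, none of them called at 22.5 C. Of the genes called higher at 16 C, Cdkn1a (2.71), Dab2 (2.33), Csf1 (2.09) and Stab1 (2.34) were also called higher at 22.5 C, while Fos had 0.99 there (edgeR adjusted p = 0.301). The labels call the AMPH rats normothermic at 16 C and hyperthermic at 22.5 C. Room temperature and body temperature therefore cannot be told apart in this difference. The part of sequencing project in the difference between environments was not tested.

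**Figure D5:**
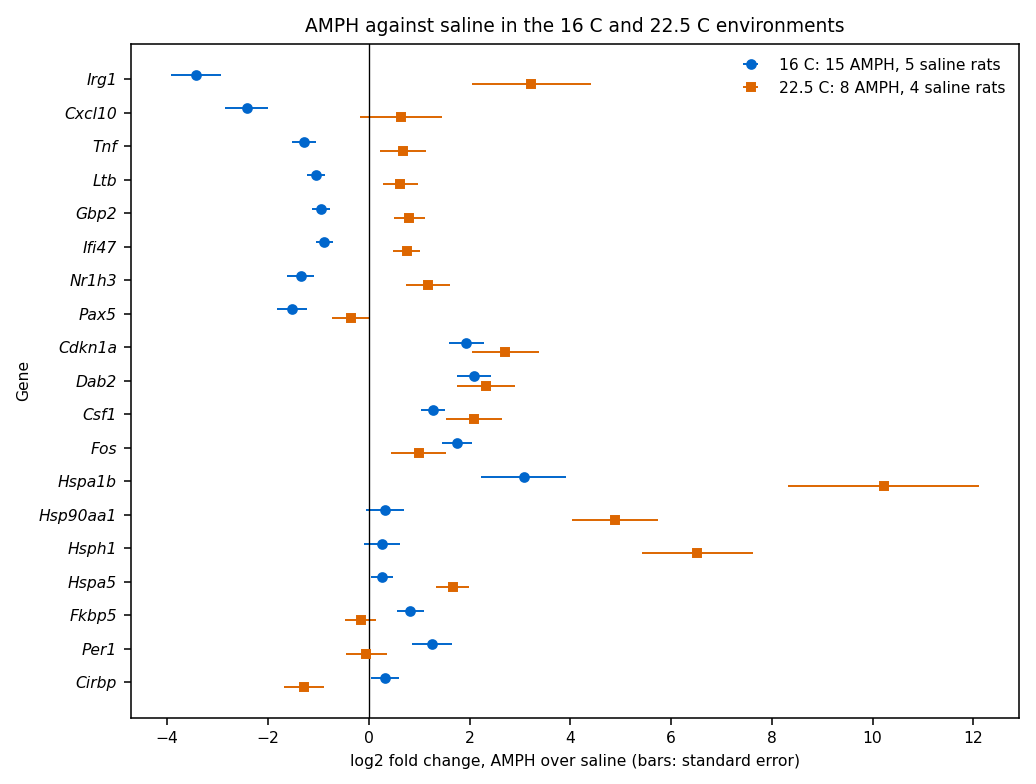
Log2 fold change of AMPH over saline for 19 genes in the 16 C comparison (15 AMPH and 5 saline rats) and the 22.5 C comparison (8 AMPH and 4 saline rats), with bars for the standard error. Hsp90aa1 and Hsph1 stand at 0.32 and 0.26 at 16 C and at 4.89 and 6.52 at 22.5 C, and Irg1 at -3.43 and 3.22.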

How the data were processed

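Globin-depleted RNA from whole blood of 20 rats (15 AMPH, 5 saline) was sequenced as paired reads. Per the labels and the study's methods, the authors called bases with CASAVA 1.8.2, aligned clipped reads with Bowtie 0.12.9 to rat Ensembl transcripts (rn5) and quantified them with RSEM 1.2.0. The authors deposited expected counts per gene, neither normalized nor rounded. Here they were rounded, and the 17565 genes listed for all 20 rats were kept, since files of different projects list different genes. Genes were tested with edgeR 4.0.16 (TMM, quasi-likelihood, Benjamini-Hochberg adjustment, R 4.3.3) where at least 5 rats had 10 or more counts. The study used DESeq2, and DESeq2 1.42.0 with no covariate was an alternative here. Normalized counts are counts over DESeq2 size factors. Exact permutation tests used scipy 1.17.1. Both tests were checked on simulated data, where a larger share of the calls of DESeq2 than of edgeR fell on unchanged genes.

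Groups came from the labels and the sequencing project from a code in the file names. Each replicate is 1 rat, and nothing says which rats shared a litter or day, so p-values measure the spread between these rats. Total counts of at least 22619751 per rat leave counting noise small except for genes of few counts. The biological coefficient of variation was 0.399, or 0.321 without the 2 AMPH rats over 5000 Mb counts. No 2 rats of a group agreed within sampling noise (lowest chi-square per gene 56.2 over 115 pairs). Genes carry their deposited symbols, and positions are given only for RefSeq promoters, matched by symbol. The rule for named genes took the 10 largest and 10 smallest log2 fold changes among called genes without overlap and with a group mean of 100 normalized counts or more, which 6 genes met. It also took the 3 members of highest mean and the 3 of smallest p from each of 31 gene lists, and the 29 immune-related genes of the study. Other called genes, Ptprcap and the genes of the closing section were named after their values were seen. A few items are not reported here. Members and lists were chosen with earlier results of these data known. Alternatives covered scaling, test, filter, Mb limit, each rat left out, replicate block and project. DESeq2 without the Mb rats, the environments without them or without AMPH replicate 17 at 22.5 C, and the alternatives of the hemoglobin and cardiac muscle levels were chosen after seeing the data.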

Additional observations from a re-analysis of the deposited data

Results flagged for a closer look

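In 5 of 80 sets of 5 controls, 1 control stood apart from the other 4 by more than a 95% gap test allows, and chance gives about 1 in 20 sets. Control replicate 2 was the high one for 3 genes, with 780.0 normalized counts of Irg1, 8211 of Ltb and 568.3 of Relb. Irg1 and Ltb are among the 28 called genes. Without this rat edgeR called 0 genes of any kind, and Irg1 and Ltb had an edgeR adjusted p of 0.0931 and 0.119. Control replicate 1 had 133 normalized counts of Mb, and control replicate 3 had 379 of Mcm3, a subunit of the replication helicase. What set these values apart was not tested.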

How the results depend on the processing

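Over the alternatives run, none of the 27 called genes named in the text changed sign, and 585 of their values kept the call while 301 lost it. Hsp90aa1 and Hsph1, not called, changed sign with scaling by library size only, to -0.0165 and -0.0496 on the log2 scale. That scaling also lowered the median log2 fold change of all genes from 0.03 to -0.16. The 28 calls became 29 with DESeq2 size factors, 24 with no filter on low counts and 26 with at least 50 counts. They became 5 (1 higher, 4 lower, against 13 and 15) with library size only, 308 with DESeq2's test, 55 without the rats over 5000 Mb counts and 406 with both of these, and 0 to 65 when single rats were left out. The project as a covariate gave 1 gene over 20 rats and 0 over 64. The 64 rats in 1 fit without it gave 0, and project H33741 alone gave 0. The replicate block over replicates 1 to 5 gave 163 genes and the same 10 rats without it 542. Rats with the same number did not deviate together (mean correlation -0.07, 0 of 5 pairs over 0.1). With only 5 pairs this cannot tell whether they shared a day or litter. Within 1 project the 0 calls became 280 with DESeq2's test, and 0 to 51 when single controls were left out. The difference between environments went from 0 to 374 genes with all rats of the 4 groups, 92 with DESeq2's test, 2 without the rats over 5000 Mb counts, 138 without AMPH replicate 17 at 22.5 C, and 0 to 171 when single controls were left out. The cause was not tested. Calls per gene list were recomputed with DESeq2, without the Mb rats and within 1 project, and the other alternatives were not run for lists. Having 5 controls, all of 1 project, limits the comparison, and genes of few counts entered only the fit with no filter on low counts.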

Other observations

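Of the 24 genes whose groups did not overlap, 17 missed an adjusted p of 0.05 in edgeR. Sp110, a nuclear body protein induced by interferon, had 1930.2 to 2628 normalized counts in the controls and 1189 to 1914 in the AMPH rats (log2 fold change -0.54, edgeR adjusted p = 0.0501). Sit1, an adaptor that damps T cell receptor signals, had a log2 fold change of -0.73 (adjusted p = 0.112) and Limd2 -0.70 (adjusted p = 0.0915). Ass1, argininosuccinate synthase, was higher in all 15 AMPH rats, with means of 213 and 58.6 normalized counts (log2 fold change 1.84, edgeR adjusted p = 0.0507). Rgs5, a regulator of G protein signalling known from pericytes, had a log2 fold change of 3.17 (adjusted p = 0.083), and 2.57 without AMPH replicates 2 and 12 (adjusted p = 0.0214). These genes were chosen after their values were seen.

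Lists not described above had no gene called in edgeR. DESeq2 called 3 ribosomal protein genes and at most 2 genes in any other of these lists. Median log2 fold changes were -0.04 for 95 ribosomal protein genes (-0.19 without AMPH replicates 2 and 12, and -0.39 with 85 of 91 below 0 for rat 14), 0.32 for 81 respiratory chain genes (-0.03 without them, and -0.05 for rat 14) and 0.01 for 37 proteasome genes (-0.09 for rat 14, here against its 5 project mates). Receptor and regulator lists had medians over all 20 rats, and for rat 14, of 0.22 and 0.16 (Toll-like receptors), -0.22 and -0.51 (chemokine receptors), 0.18 and 0.05 (leukocyte adhesion), 0.15 and 0.28 (circadian clock), 0.15 and -0.31 (catecholamine and monoamine) and 0.50 and 0.19 (cAMP-responsive). Eosinophil and basophil genes had -0.10, and 1.14 with 7 of 7 above 0 for rat 14. Of all 11155 genes tested for rat 14, 5993 were below 0 and 5162 above. Endothelium and fibroblast genes had 0.97 and cardiac muscle genes 7.05, or 2.47 without AMPH replicates 2 and 12. At an unadjusted p under 0.05 in edgeR stood 1726 of all genes tested (13.8%).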
